A study of Homo sapiens with 24 samples.

Results

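Histone genes were followed through 24 expression arrays of 2 human leukemia cell lines grown with or without EPZ004777, a small molecule that inhibits DOT1L, the enzyme that methylates a lysine of histone H3 on transcribed genes. Members are the probe sets whose annotation lists a symbol beginning H1-, H2AC, H2BC, H3C or H4C, alone or with other symbols, or one of H2AZ1, H2AZ2, H2AX, H2AJ, H3-3A, H3-3B and MACROH2A1. There were 108 such probe sets, with 76 histone symbols, among the 54675 on the array. Of these, 57 had a log2 intensity of 4 or more in at least 3 arrays and were tested, and the other 51 were not. MV4-11 cells, a biphenotypic B myelomonocytic line with the MLL-AF4 fusion, were kept in IMDM with 3 uM EPZ004777 or with vehicle (0.1% DMSO) and sampled at days 2, 4 and 6. The second line, MOLM-13, comes from an acute myeloid leukemia, carries the MLL-AF9 fusion and was kept in RPMI with 3 uM EPZ004777 or with vehicle (0.1% DMSO) and sampled at day 6. Each of the 8 groups has 3 arrays, labelled as biological replicates without saying how the cultures were separated, so the p-values measure the spread between these samples. The series asks how expression in leukemia cells with a rearranged MLL gene changes under the inhibitor with time.

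Core histones H2A, H2B, H3 and H4 wrap DNA into nucleosomes, and linker histone H1 binds the DNA between them. The replication-dependent genes, mostly in a cluster on chromosome 6 and a smaller one on chromosome 1, are transcribed in S phase, and their messages usually end in a stem-loop bound by SLBP in place of a poly(A) tail. Replacement histones such as H2A.Z, H3.3 and macroH2A are made from polyadenylated messages throughout the cell cycle. Some replication-dependent genes, among them H2AC6, H2BC5, H2BC12 and H2BC21, are known to give polyadenylated messages as well, which have been described in cells that leave the cycle and differentiate. The labels name an amplification and labelling kit but not the primer used to copy the RNA. No value here separates a tailed message from one that ends in a stem-loop, so the comparison below sets the histone probe sets beside genes of DNA replication and mitosis and measures no tail.

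The annotated genes behind the histone probe sets differ in length. The 62 replication-dependent protein-coding genes among the members span a median of 491 bases in the RefSeq annotation (GRCh38.p14), and 7 of them span over 2000 bases. Of the 17 that had a tested probe set of their own, 3 are that long, namely H2BC5 with 13229 bases, H2BC12 with 8566 bases and H2BC21 with 2224 bases. The limit of 2000 bases was chosen after the values were seen. By contrast H2AC6 spans 519 bases and H2AC25 spans 510 bases. Several of these genes stand head to head with a histone gene on the other strand. The starts of H2AC6 and H2BC4 lie 246 bases apart, those of H2BC21 and H2AC20 236 bases apart, and those of H2AC25 and H2BC26 230 bases apart.

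Promoters are printed for the 5 genes with the largest positive log2 differences on day 6 in MV4-11 cells among replication-dependent probe sets of 1 symbol, for H2AX, which moved in opposite directions in the lines, and for H2AZ1, which was lower in both. Each is the 250 bases before the RefSeq start (GRCh38.p14), 5′ to 3′ on the gene's own strand. H2AC6 is at chr6:26123922-26124171 on the plus strand, H2BC5 at chr6:26157871-26158120 on the plus strand, H2BC12 at chr6:27146859-27147108 on the minus strand, H2BC21 at chr1:149886683-149886932 on the minus strand, H2AC25 at chr1:228457874-228458123 on the minus strand, H2AX at chr11:119095466-119095715 on the minus strand and H2AZ1 at chr4:99950276-99950525 on the minus strand. Capitals mark matches on either strand to the CCAAT box (CCAAT, read as ATTGG on the other strand), to a TATA box (TATAAA, read as TTTATA) and to the octamer known from H2B promoters (ATTTGCAT, read as ATGCAAAT).
H2AC6: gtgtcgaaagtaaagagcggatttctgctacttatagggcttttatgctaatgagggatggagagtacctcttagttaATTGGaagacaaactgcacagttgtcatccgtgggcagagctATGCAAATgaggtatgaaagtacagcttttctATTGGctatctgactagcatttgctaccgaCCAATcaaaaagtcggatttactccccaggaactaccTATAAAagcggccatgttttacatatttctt
H2BC5: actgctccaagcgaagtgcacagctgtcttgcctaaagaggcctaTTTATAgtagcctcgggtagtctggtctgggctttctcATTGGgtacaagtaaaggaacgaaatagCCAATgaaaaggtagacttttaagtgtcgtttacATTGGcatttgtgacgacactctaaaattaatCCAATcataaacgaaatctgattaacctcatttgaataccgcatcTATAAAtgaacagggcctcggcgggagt
H2BC12: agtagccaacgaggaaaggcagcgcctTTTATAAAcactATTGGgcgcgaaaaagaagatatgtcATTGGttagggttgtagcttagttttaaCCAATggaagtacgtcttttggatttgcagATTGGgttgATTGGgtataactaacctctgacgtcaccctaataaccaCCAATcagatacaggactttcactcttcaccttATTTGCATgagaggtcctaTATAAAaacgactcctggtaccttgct
H2BC21: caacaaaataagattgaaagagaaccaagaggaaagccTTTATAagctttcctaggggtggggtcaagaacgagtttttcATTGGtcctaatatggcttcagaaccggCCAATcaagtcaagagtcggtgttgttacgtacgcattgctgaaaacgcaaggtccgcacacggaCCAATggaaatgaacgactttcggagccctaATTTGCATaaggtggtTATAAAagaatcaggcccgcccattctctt
H2AC25: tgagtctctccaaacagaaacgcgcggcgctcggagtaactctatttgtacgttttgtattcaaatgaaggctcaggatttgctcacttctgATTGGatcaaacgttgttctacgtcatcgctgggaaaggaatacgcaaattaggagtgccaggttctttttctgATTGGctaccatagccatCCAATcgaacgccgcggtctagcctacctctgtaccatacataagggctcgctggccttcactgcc
H2AX: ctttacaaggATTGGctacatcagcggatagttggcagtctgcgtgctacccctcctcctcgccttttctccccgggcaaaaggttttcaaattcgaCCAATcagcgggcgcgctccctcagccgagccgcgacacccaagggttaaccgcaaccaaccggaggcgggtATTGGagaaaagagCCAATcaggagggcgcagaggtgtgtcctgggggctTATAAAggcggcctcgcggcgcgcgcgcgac
H2AZ1: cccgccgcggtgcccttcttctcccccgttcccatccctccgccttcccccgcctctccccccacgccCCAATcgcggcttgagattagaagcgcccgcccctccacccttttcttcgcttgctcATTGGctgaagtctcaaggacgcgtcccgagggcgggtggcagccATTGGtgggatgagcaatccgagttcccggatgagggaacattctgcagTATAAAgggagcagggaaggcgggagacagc

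Of these 7 promoters, 6 held a TATA box that began between 27 and 31 bases before the start, and that of H2AC25 held 0. Each of the 7 held 3 or more CCAAT boxes. The octamer was present in those of H2AC6, H2BC12 and H2BC21 and not in the other four windows. In the H2BC12 promoter 2 TATA matches on opposite strands overlap, and no match to one motif overlaps a match to another. Of the first listed promoter of 27305 genes, 33% held a CCAAT box, 11.1% a TATA box and 1.66% the octamer in a window of the same length. Among the 75 genes in that table whose symbols fit the member rule, 82.7% held a CCAAT box, 61.3% a TATA box and 36.0% the octamer. Some of these genes, such as H2AC20 and H2BC26, have no probe set among the members. The octamer was in 73.7% of the 19 H2B promoters and 68.8% of the 16 H2A promoters of that set. Many H2A and H2B genes stand head to head with starts under 250 bases apart. Their windows overlap, so these shares can count the same matches. Among the 7, CCAAT and TATA boxes stand before rising genes and before H2AX and H2AZ1, which fell in MV4-11 cells. The octamer stands before neither H2AX nor H2AZ1. The set is small, and a match describes the sequence only.

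The deposited values are GCRMA intensities, taken here as log2, and run from a floor of 2.19 to 16.1. Of the 51 probe sets that were not tested, 43 stayed under a log2 of 3 in every array and 11 sat at the floor in all 24. Of the 57 tested, 50 were at 4 or more in all 24 arrays. By class the tested share was 9 of 16 probe sets for H2A genes, 11 of 20 for H2B, 2 of 10 for H3, 4 of 16 for H4, 3 of 14 for linker H1 and 27 of 30 for the replacement histones. One of 2 probe sets listed with H3 and H2A genes together was tested. Histone genes are near copies of each other, and 35 of the 57 have an ID ending in _s_at or _x_at, the array maker's sign for probes shared between transcripts; 19 are annotated with several symbols and are given here by ID and to no single gene. In 14 of the 57 at least 6 arrays lay within 0.01 of one shared value, and in 3 of these (H3C8 208496_x_at, H2AC14 208583_x_at and 214542_x_at of 6 H2A genes) at least 12 arrays did, so these 3 probe sets can show a change in few arrays.

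The labelled cell types were checked with myeloid genes. MPO reached a log2 of 13.6, ELANE 15.1 and LYZ 15.3 as the highest group means. Among markers of other cells, the fibroblast genes COL1A2 and DCN, the T cell genes CD3E and CD2, and HBB stayed under 3 in every array, as did the B cell gene MS4A1, while CD79A reached 3.19 and PAX5 5.31. CD3D reached 8.31, NKG7 11.4 and COL1A1 7.92. The summed intensity of the T and NK cell list was higher in the treated arrays of day 6, at 2238 to 2760 in EPZ004777 and 1239 to 1363 in vehicle arrays of MV4-11 and at 1579 to 1820 in EPZ004777 and 984.2 to 1141 in vehicle arrays of MOLM-13 cells, with CD3E and CD2 at the floor, and its part in the results was not tested. RNA quality differed between groups. The mean 3′ minus 5′ log2 difference, taken over the array's control probe sets for ACTB and GAPDH, was 1.20 ± 0.62 in EPZ004777 and 0.57 ± 0.01 in vehicle arrays of MV4-11 on day 6 (SD, n = 3 each), with replicate 3 of the treated group at 1.91. It was 2.42 ± 0.38 in EPZ004777 and 1.08 ± 0.11 in vehicle arrays of MOLM-13 cells. On days 2 and 4 the group means ran from 0.55 to 0.77. Its part in the results was not tested beyond a fit with this difference as a covariate, whose values are given where they end or turn a named call.

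Across the 4 comparisons of treated with vehicle cultures, histone probe sets moved in both directions. On day 2 in MV4-11 cells 5 of 57 were higher and 1 was lower at an adjusted p under 0.05 (limma, Benjamini-Hochberg over 25334 probe sets), against 5.17% higher and 3.51% lower among all probe sets tested. By day 4 there were 16 higher and 13 lower, against 19.6% and 18.1% of all. On day 6 there were 14 higher and 19 lower, against 27.2% and 30.4% of all. MOLM-13 cells on day 6 had 9 higher and 19 lower, against 28.0% and 34.8% of all; with the 3′ minus 5′ covariate 7 were lower there. As shares of the 57, that is 28.1% higher and 22.8% lower on day 4, 24.6% and 33.3% on day 6 and 15.8% and 33.3% in MOLM-13 cells. The shares on day 6 in MV4-11 cells were near those of all probe sets, so the counts alone set histone genes apart in neither direction there. The median log2 change of the 57 was 0.02, 0.05 and 0.02 on days 2, 4 and 6 in MV4-11 cells and -0.11 in MOLM-13 cells, beside 0.00, 0.00, -0.01 and -0.03 over all tested. With the covariate the MOLM-13 median of the histone probe sets turned to 0.083. Of the 50 probe sets over the filter in all 24 arrays, 10 were higher and 18 lower on day 6 in MV4-11 cells. In bulk RNA, fewer cells of a kind and less RNA per cell cannot be told apart.

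Replication-dependent and other histone probe sets were called in different proportions. Of 29 replication-dependent probe sets, 4, 9 and 10 were higher and 0, 4 and 5 lower on days 2, 4 and 6 in MV4-11 cells. On day 6 that is 34.5% higher and 17.2% lower, against 27.2% and 30.4% of all probe sets tested. The 10 include H2BC21, which was tested only through its treated arrays. Of the 28 others, 1, 7 and 4 were higher and 1, 9 and 14 lower. These 28 come from few genes, with 5 probe sets of MACROH2A1, 4 of H2AZ2 and 4 of H2AJ among them. Their calls are therefore not separate genes. The median change on day 6 was 0.05 for the replication-dependent and -0.25 for the other probe sets. In MOLM-13 cells the counts were 5 higher and 6 lower among the replication-dependent and 4 higher and 13 lower among the others. As shares these are 17.2% and 20.7%, and 14.3% and 46.4%, against 28.0% higher and 34.8% lower among all probe sets tested. The difference between these classes was not tested. Of the 57, 11 were higher on both day 4 and day 6 in MV4-11 cells and 12 were lower on both, with 0 called in opposite directions, and 10 were called in none of the 4 comparisons. As shares of the 57 these are 19.3%, 21.1%, 0% and 17.5%, beside 15.3%, 12.9%, 0.829% and 14.98% of all probe sets tested.

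Core histones H2A and H2B held the largest rises in MV4-11 cells. H2AC6 (215071_s_at), a replication-dependent H2A gene, read 6.37, 6.32 and 5.75 in the 3 EPZ004777 arrays of day 2, against 4.83, 5.08 and 4.19 in vehicle. On day 4 the values were 9.20, 8.70 and 9.05 in EPZ004777 and 7.11, 6.83 and 7.39 in vehicle arrays. On day 6 they were 9.28, 9.24 and 9.04 in EPZ004777 and 5.93, 4.56 and 3.60 in vehicle arrays. The groups did not overlap on any day, and the vehicle arrays of day 4 stood above those of days 2 and 6. H2AC6 rose by 1.45 ± 0.37 (log2 change ± SE, adjusted p = 0.0173) on day 2, by 1.87 ± 0.37 (adjusted p = 0.000435) on day 4 and by 4.50 ± 0.37 (adjusted p = 5.76e-09) on day 6. The vehicle level on day 6 spread over more than 2 log2 units, and leaving out single arrays moved the day 6 change between 3.95 and 5.11. Against the vehicle arrays of days 2 and 6, the day 4 change was 4.29 in place of 1.87. The day 2 call was lost without treated replicate 1 or 2 or vehicle replicate 3 (adjusted p = 0.0683, 0.0700 and 0.0926). The probe set of its divergent neighbour H2BC4 (236193_at) reached 3.99 and was not tested.

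H2BC12 and H2BC5, H2B genes with long annotated spans, rose as well. H2BC12 (209806_at) read 9.93, 10.06 and 9.94 in EPZ004777 and 9.57, 9.41 and 9.57 in vehicle arrays on day 2. It read 11.08, 10.92 and 10.99 in EPZ004777 and 10.09, 9.98 and 10.04 in vehicle arrays on day 4. It read 11.31, 11.28 and 10.98 in EPZ004777 and 9.84, 9.76 and 9.66 in vehicle arrays on day 6. No treated array of MV4-11 cells overlapped the vehicle arrays of its day, and the gap widened with time. The log2 change of H2BC12 was 0.46 ± 0.08 on day 2, 0.96 ± 0.08 on day 4 and 1.44 ± 0.08 on day 6 (adjusted p = 0.00107, 2.11e-08 and 3.74e-11), and day 6 minus day 2 differed by 0.97 ± 0.11 (adjusted p = 4.68e-06).

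H2BC5 has 2 probe sets that differ in size of change. For 209911_x_at the values were 7.24, 7.06 and 7.31 in EPZ004777 and 6.83, 6.53 and 6.86 in vehicle arrays on day 2. On day 4 they were 9.28, 9.03 and 9.02 in EPZ004777 and 7.41, 7.15 and 6.90 in vehicle arrays. On day 6 they were 8.68, 8.71 and 8.78 in EPZ004777 and 6.86, 6.86 and 6.44 in vehicle arrays. These groups did not overlap on any day. H2BC5 rose at this probe set by 1.96 ± 0.14 on day 4 (adjusted p = 1.94e-09) and by 2.00 ± 0.14 on day 6 (adjusted p = 6.95e-10). On day 2 the change was 0.46 ± 0.14 (adjusted p = 0.0435), and this call was lost with any 1 of the 6 day 2 arrays left out. The second H2BC5 probe set, 222067_x_at, changed by 0.44 ± 0.14 on day 4 (adjusted p = 0.0186) and gave 0.24 ± 0.14 on day 6 (adjusted p = 0.157). Its day 4 call was lost without treated replicate 1 or vehicle replicate 2 or 3 (adjusted p = 0.0639, 0.0622 and 0.053).

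H2BC21 (202708_s_at) was under the filter in every array but the 6 treated ones of days 4 and 6 in MV4-11 cells, and was tested only because of them. Its values are therefore a description, with no test. On day 2 the values were 3.00, 3.00 and 2.75 in EPZ004777 and 2.85, 2.72 and 2.75 in vehicle arrays, which overlap. On day 4 they were 4.47, 5.32 and 4.80 in EPZ004777 and 3.00, 3.00 and 3.12 in vehicle arrays. On day 6 they were 5.21, 4.51 and 4.94 in EPZ004777 and 3.00, 3.00 and 2.75 in vehicle arrays. The treated arrays of days 4 and 6 all stood above 4 and above every vehicle array, and 8 of the 24 arrays lay within 0.01 of 3.00. In MOLM-13 cells every array stayed under 3.2, and no change is read from it there.

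H2AC25 (221582_at), the H2A gene of a small cluster on chromosome 1, rose in all 4 comparisons. It read 9.26, 9.13 and 9.03 in EPZ004777 and 8.57, 8.66 and 8.66 in vehicle arrays on day 2. On day 4 it read 10.10, 9.98 and 10.10 in EPZ004777 and 9.32, 9.02 and 9.25 in vehicle arrays. On day 6 it read 10.18, 10.26 and 10.17 in EPZ004777 and 8.87, 8.77 and 8.64 in vehicle arrays. The MV4-11 groups did not overlap on any day. In MOLM-13 cells it read 7.18, 7.41 and 7.12 in EPZ004777 and 6.21, 6.33 and 6.41 in vehicle arrays, again without overlap and at a lower level than in MV4-11 cells. The changes were 0.51 ± 0.09, 0.86 ± 0.09, 1.44 ± 0.09 and, in MOLM-13 cells, 0.92 ± 0.09 (adjusted p = 0.00135, 3.82e-07, 1.79e-10 and 7.14e-08).

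Among probe sets with several symbols, 207156_at (H2AC11, H2AC12, H2AC13, H2AC15, H2AC16 and H2AC17) read 6.88, 7.09 and 7.03 in EPZ004777 and 5.46, 5.43 and 5.19 in vehicle arrays of MV4-11 on day 6, with no overlap. It rose by 1.07 ± 0.19 on day 4 and 1.64 ± 0.19 on day 6 (adjusted p = 0.000213 and 8.49e-07). The probe set 214542_x_at, annotated with the same 6 genes, was at one shared value in 20 of 24 arrays and gave -0.02 on day 6. The probe set 210387_at (H2BC8 and H2BC11) read 5.78, 5.40 and 5.07 in EPZ004777 and 4.94, 3.57 and 2.95 in vehicle arrays on day 6 and rose by 1.59 ± 0.35 (adjusted p = 0.000619), a call lost with only the arrays of that comparison in the fit (adjusted p = 0.0634). On day 4 its treated and vehicle arrays overlapped, at 5.19, 5.24 and 5.61 in EPZ004777 and 5.61, 4.75 and 5.39 in vehicle arrays. H2AC8 (214469_at), H2BC6 (208527_x_at) and H2BC12L (208579_x_at) changed by 0.84 ± 0.22, 0.51 ± 0.15 and 0.54 ± 0.18 on day 6 (adjusted p = 0.00308, 0.00602 and 0.0132). H2AC8 lay near the filter, between 3.58 and 5.29, with 9 arrays at one shared value of 3.86. For H2BC6, 7 arrays lay at one shared value of 7.42. Probe sets of H2B genes share sequence, and 8 of the 11 tested H2B probe sets have an ID of the shared kind. Counted by class on day 6 in MV4-11 cells, 4 of 9 H2A probe sets were higher and 1 lower, and 6 of 11 H2B probe sets were higher and 2 lower. As shares these are 44.4% and 11.1%, and 54.55% and 18.2%, against 27.2% higher and 30.4% lower among all tested. The 6 include H2BC21, which was tested only through its treated arrays, and probe sets of the shared kind, so they are not separate genes.

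**Figure D1:**
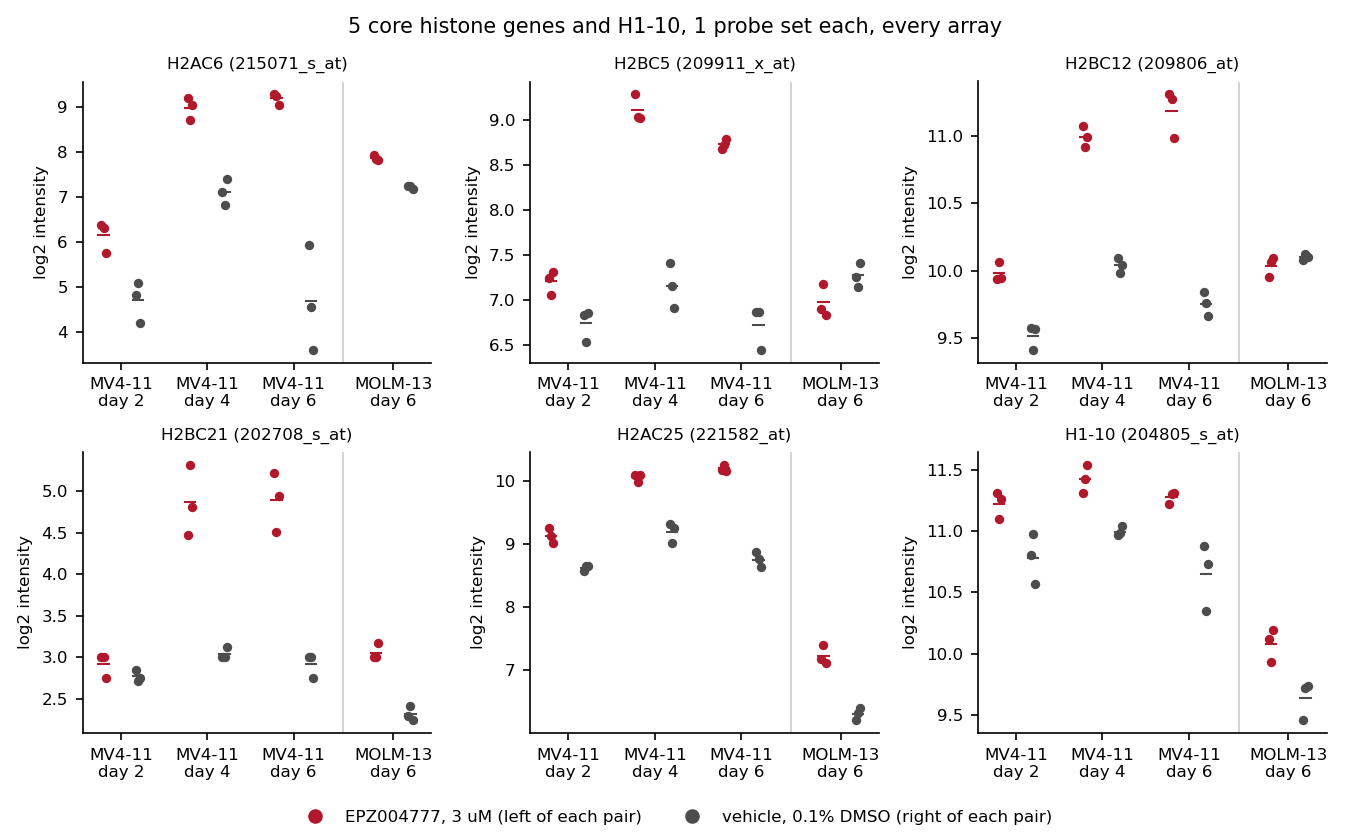
Log2 intensity of 6 histone genes in all 24 arrays, 1 probe set each; points are arrays, bars are means of 3, red is EPZ004777 and grey is vehicle. In MV4-11 cells all 6 are higher under EPZ004777 on day 6 with no overlap, while in MOLM-13 cells H2BC5 and H2BC12 show no rise. The H2A and H2B genes shown were picked by their rise in these comparisons. H2BC21 was tested only through its treated arrays of days 4 and 6, so its points are a description.

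Other replication-dependent probe sets were lower. H2BC9 (208546_x_at) read 7.07, 6.79 and 6.62 in EPZ004777 and 7.66, 7.60 and 7.88 in vehicle arrays of MV4-11 on day 4. On day 6 it read 7.21, 6.52 and 5.75 in EPZ004777 and 7.66, 8.03 and 7.51 in vehicle arrays. The treated arrays of day 6 were far apart but all under the vehicle arrays, and replicate 3, with the highest 3′ minus 5′ difference, was the lowest. H2BC9 fell, with a log2 change of -0.89 ± 0.25 on day 4 (adjusted p = 0.00893) and -1.23 ± 0.25 on day 6 (adjusted p = 0.000349). Without replicate 3 the day 6 change was -0.86, and with the 3′ minus 5′ covariate it was -0.72, moved by over 1.5 times and still called (adjusted p = 0.0207). With only the arrays of that comparison in the fit the call was lost (adjusted p = 0.0526). H2BC14 (208515_at) read 3.88, 3.71 and 3.44 in EPZ004777 and 4.49, 4.21 and 4.63 in vehicle arrays on day 6, on either side of the filter and without overlap. It fell, with changes of -0.54 ± 0.17 on day 4, -0.77 ± 0.17 on day 6 and -0.60 ± 0.17 in MOLM-13 cells (adjusted p = 0.0197, 0.00088 and 0.00576). The day 4 call was lost without treated replicate 2 or 3 or vehicle replicate 1 or 3, and the MOLM-13 call with the 3′ minus 5′ covariate (-0.14, adjusted p = 0.771). H2AC14 (208583_x_at), whose start lies 245 bases from that of H2BC14 on the other strand, read between 7.26 and 7.79 in all arrays and changed by -0.26 ± 0.08 on day 6 (adjusted p = 0.0093). None of the 4 H4 probe sets was higher in any of the 4 comparisons, and 2 were lower on day 6 in MV4-11 cells, against 30.4% lower among all tested. H4C11 (214463_x_at) read 6.87, 6.97 and 7.14 in EPZ004777 and 7.49, 7.74 and 7.36 in vehicle arrays on day 6 and changed by -0.54 ± 0.11 (adjusted p = 0.000417). The other, 208580_x_at, annotated with 14 H4 genes, changed by -0.36 ± 0.12 (adjusted p = 0.0151). The brighter 205967_at, annotated with the same genes, among them H4C3 and H4C14, stayed between 11.97 and 12.53 in all 24 arrays and was called in no comparison.

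The 2 probe sets of H3 genes alone changed little. The probe set 206110_at, annotated with 10 H3 genes from H3C1 to H3C12, rose by 0.38 ± 0.13 on day 4 (adjusted p = 0.0215) at levels between 4.12 and 5.06, and against the vehicle arrays of days 2 and 6 the change was 0.08. The call was also lost without treated replicate 2 or 3 or vehicle replicate 2 (adjusted p = 0.0584, 0.0782 and 0.102). H3C8 (208496_x_at) stood at one shared value in 21 of 24 arrays. The probe set 214472_at, annotated with the same H3 genes and H2AC7, read 3.49, 4.59 and 4.29 in EPZ004777 and 5.58, 5.36 and 5.35 in vehicle arrays of MOLM-13 cells, with no overlap, and between 3.24 and 4.54 in MV4-11 arrays. It fell in MOLM-13 cells, with a change of -1.30 ± 0.21 (adjusted p = 2.07e-05), the largest fall of the 57 there. On day 4 in MV4-11 cells 214472_at was also called lower, at -0.68. Against the vehicle arrays of days 2 and 6 that change was -0.0016. The day 4 call was lost without vehicle replicate 3 (adjusted p = 0.111) and with only the arrays of that comparison in the fit (adjusted p = 0.0661).

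Linker histone H1-10 (204805_s_at), a replacement H1 with a polyadenylated message, was the one linker probe set higher in all 4 comparisons. It read 11.22, 11.30 and 11.31 in EPZ004777 and 10.88, 10.35 and 10.73 in vehicle arrays of MV4-11 on day 6. In MOLM-13 cells it read 10.12, 9.94 and 10.19 in EPZ004777 and 9.46, 9.72 and 9.74 in vehicle arrays. Neither pair of groups overlapped. Its log2 changes were 0.44 ± 0.12, 0.43 ± 0.12 and 0.63 ± 0.12 on days 2, 4 and 6 and 0.44 ± 0.12 in MOLM-13 cells (adjusted p = 0.0306, 0.00896, 0.000225 and 0.0039). The day 2 call was lost without treated replicate 1 or 3 or vehicle replicate 1 or 3, and the MOLM-13 call was lost with the 3′ minus 5′ covariate (adjusted p = 0.103). H1-2 (209398_at), a replication-dependent linker gene, read 7.22, 7.34 and 7.34 in EPZ004777 and 6.84, 6.93 and 7.01 in vehicle arrays of MOLM-13 cells and rose by 0.38 ± 0.11 (adjusted p = 0.00791). On day 6 in MV4-11 cells it gave 0.05 ± 0.11 (adjusted p = 0.765). H1-4 (208553_at) was called in no comparison, with 9 arrays within 0.01 of 4.30.

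Of 27 replacement histone probe sets, 14 were lower and 3 higher on day 6 in MV4-11 cells, against 30.4% lower and 27.2% higher among all tested. In MOLM-13 cells 13 were lower and 3 higher, against 34.8% and 28.0% of all. H2AZ1, which encodes the H2A.Z protein found around transcription start sites, fell at both of its probe sets. For 200853_at the values were 14.21, 14.20 and 14.24 in EPZ004777 and 14.32, 14.33 and 14.29 in vehicle arrays of MV4-11 on day 2. On day 6 they were 13.74, 13.76 and 13.58 in EPZ004777 and 14.44, 14.27 and 14.37 in vehicle arrays. In MOLM-13 cells they were 13.60, 13.30 and 13.41 in EPZ004777 and 14.25, 14.31 and 14.25 in vehicle arrays. The treated arrays lay under the vehicle arrays in each of these groups. The changes of H2AZ1 at 200853_at were -0.10 ± 0.07 on day 2, -0.31 ± 0.07 on day 4, -0.67 ± 0.07 on day 6 and -0.84 ± 0.07 in MOLM-13 cells (adjusted p = 0.508, 0.00185, 2.34e-07 and 1.14e-08). At 213911_s_at the changes were -0.07, -0.25, -0.43 and -0.53, called from day 4 on. The day 4 call at that probe set was lost without treated replicate 2 or vehicle replicate 2 or 3 (adjusted p = 0.0799, 0.137 and 0.077) and with only the arrays of that comparison in the fit (adjusted p = 0.117). The difference between the lines on day 6 was -0.17 ± 0.10 (adjusted p = 0.185). H2AZ2, the gene of the second H2A.Z protein, has 4 probe sets that disagreed. On day 6 in MV4-11 cells 202487_s_at changed by -0.61 ± 0.12 (adjusted p = 0.000225) and 212206_s_at by -0.38 ± 0.10 (adjusted p = 0.00391), while 212205_at gave 0.09 and 227085_at 0.03. The call at 212206_s_at was lost with the 3′ minus 5′ covariate (-0.11, adjusted p = 0.21) and with only the arrays of that comparison in the fit (adjusted p = 0.0933). In MOLM-13 cells the first of these changed by -0.38 ± 0.12 (adjusted p = 0.00971), and with the 3′ minus 5′ covariate its sign turned to 0.34 (adjusted p = 0.0132).

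H2AX, whose protein is phosphorylated at DNA breaks and whose gene gives both stem-loop and polyadenylated messages, moved in opposite directions in the lines. At 205436_s_at, its brightest probe set, the values were 11.52, 11.50 and 11.46 in EPZ004777 and 12.28, 12.32 and 12.49 in vehicle arrays of MV4-11 on day 6. In MOLM-13 cells they were 12.68, 12.75 and 12.70 in EPZ004777 and 12.08, 12.09 and 12.21 in vehicle arrays. Treated arrays were all under the vehicle arrays in MV4-11 cells and all over them in MOLM-13 cells. The change was -0.10 ± 0.06 on day 2 (adjusted p = 0.389), -0.40 ± 0.06 on day 4 (adjusted p = 2.35e-05) and -0.87 ± 0.06 on day 6 (adjusted p = 5.18e-10) in MV4-11 cells, and 0.58 ± 0.06 in MOLM-13 cells (adjusted p = 1.05e-07). The difference between the lines was 1.45 ± 0.08 (adjusted p = 9.88e-11). At 213344_s_at the day 6 change was -0.38 in MV4-11 and 0.69 in MOLM-13 cells, both called, and their difference was 1.07 ± 0.21 (adjusted p = 0.000474). The MV4-11 call at this probe set was lost without any one of 4 of the 6 arrays, and the MOLM-13 call with the covariate (0.38, adjusted p = 0.311). At 212525_s_at the MV4-11 arrays of day 6 read 6.51, 6.39 and 5.14 in EPZ004777 and 7.60, 7.60 and 8.37 in vehicle, a change of -1.84 ± 0.27 (adjusted p = 1.31e-05), which was -1.40 without treated replicate 3. In MOLM-13 cells this probe set gave -0.11 (adjusted p = 0.756) and 1.16 with the covariate (adjusted p = 0.0267). At 205436_s_at the covariate left both directions as they were, with -0.87 in MV4-11 and 0.59 in MOLM-13 cells.

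H2AJ, an H2A variant gene, had 2 bright probe sets that fell and 2 dim ones that rose in MV4-11 cells. On day 6, 224301_x_at read 10.61, 10.57 and 10.49 in EPZ004777 and 11.40, 11.38 and 11.42 in vehicle arrays and changed by -0.84 ± 0.08 (adjusted p = 3.85e-08). The similar 225245_x_at changed by -0.79 ± 0.08 (adjusted p = 1.48e-07). Against this, 220936_s_at read 6.78, 7.04 and 6.62 in EPZ004777 and 5.81, 6.21 and 5.57 in vehicle arrays and rose by 0.95 ± 0.24 (adjusted p = 0.0024). The fourth, 228213_at, rose by 0.53 ± 0.13 (adjusted p = 0.00157), with 11 of 24 arrays at one shared value of 5.77, and this call was lost with only the arrays of that comparison in the fit (adjusted p = 0.0792). These probe sets give no single direction for the gene. In MOLM-13 cells the 2 bright probe sets gave 0.18 and 0.11, not called, and both differed from MV4-11 cells, by 1.02 ± 0.11 and 0.90 ± 0.12 (adjusted p = 6.8e-07 and 4.62e-06).

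MACROH2A1, the gene of a large H2A variant found on silent chromatin, was lower at 3 of 5 probe sets on day 6 in MV4-11 cells and at 4 of 5 in MOLM-13 cells, and higher at 0 in both. Over all probe sets tested, 30.4% and 34.8% were lower and 27.2% and 28.0% higher in these comparisons. At 214501_s_at the MV4-11 arrays read 13.05, 13.02 and 12.59 in EPZ004777 and 13.66, 13.66 and 13.69 in vehicle, a change of -0.78 ± 0.09 (adjusted p = 3.86e-07). At 226840_at the MOLM-13 arrays read 9.03, 8.76 and 8.71 in EPZ004777 and 9.92, 10.10 and 10.11 in vehicle, a change of -1.21 ± 0.10 (adjusted p = 1.3e-08). The same probe set gave 0.08 ± 0.10 in MV4-11 cells (adjusted p = 0.537). Its change thus differed between the lines, by -1.29 ± 0.15 (adjusted p = 1.25e-06). The probe set 229593_at changed by -0.49 ± 0.12 already on day 2 (adjusted p = 0.0117), a call lost without treated or vehicle replicate 2, and gave -0.02 in MOLM-13 cells. With the 3′ minus 5′ covariate 226840_at was the one MACROH2A1 probe set still lower in MOLM-13 cells (-0.81, adjusted p = 0.00102), and 214500_at gave 0.18 (adjusted p = 0.553) in place of -0.67.

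H3.3, the replacement H3 that carries the DOT1L mark on transcribed genes alongside the other H3 proteins, is encoded by H3-3A and H3-3B. Of the 8 probe sets annotated with both, each also with a pseudogene or a microRNA symbol, 1 was higher and 2 lower on day 6 in MV4-11 cells and 5 were lower in MOLM-13 cells. Over all probe sets tested, 27.2% were higher and 30.4% lower in MV4-11 cells, and 34.8% were lower in MOLM-13 cells. The one that rose, 211998_at, changed by 0.64 ± 0.10 in MV4-11 and -0.35 ± 0.10 in MOLM-13 cells, called in opposite directions (adjusted p = 3.36e-05 and 0.0073). At 211999_at the MOLM-13 arrays read 12.06, 11.69 and 11.96 in EPZ004777 and 12.74, 12.91 and 12.64 in vehicle, a change of -0.86 ± 0.08 (adjusted p = 5.19e-08). In MV4-11 cells this probe set gave -0.12 ± 0.08 (adjusted p = 0.248) on day 6, and the lines differed by -0.75 ± 0.12 (adjusted p = 4.61e-05). The bright 209069_s_at fell in both, with changes of -0.41 ± 0.07 in MV4-11 and -0.68 ± 0.07 in MOLM-13 cells (adjusted p = 5.69e-05 and 1.3e-07). The probe set of H3-3A alone (213826_s_at) gave 0.22 ± 0.23 and -0.29 ± 0.23 (adjusted p = 0.43 and 0.298).

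**Figure D2:**
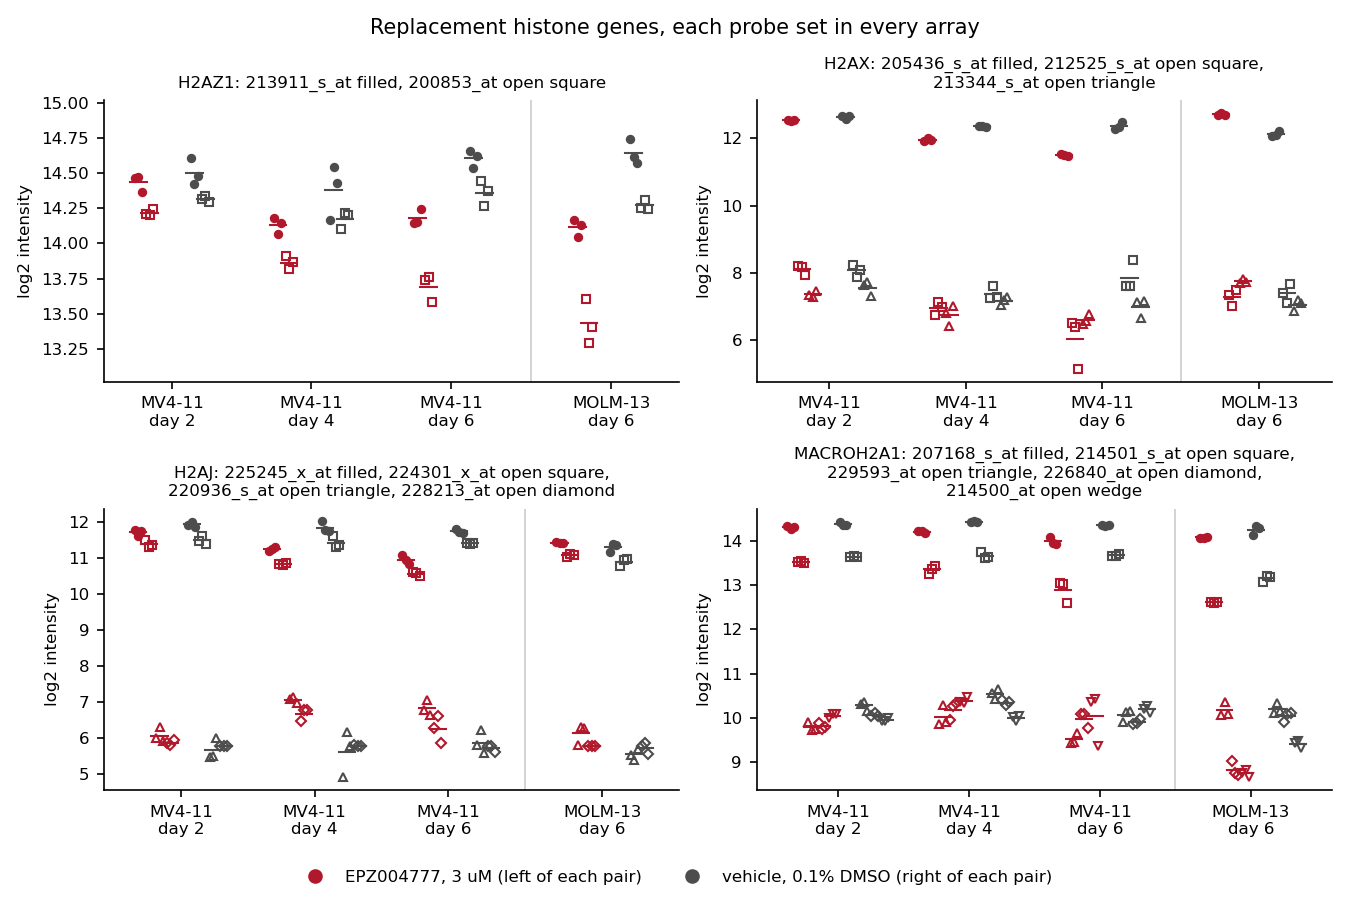
Log2 intensity of every tested probe set of 4 replacement histone genes in all 24 arrays; points are arrays, bars are means of 3, red is EPZ004777 and grey is vehicle, and the marker tells the probe set. H2AZ1 is lower under EPZ004777 in both lines on day 6, the filled H2AX points are lower in MV4-11 and higher in MOLM-13 cells, and the probe sets of H2AJ and MACROH2A1 disagree with each other.

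Some histone probe sets responded differently in the 2 lines on day 6. The test of the difference of effect, MOLM-13 minus MV4-11, called 9 of 57 probe sets higher and 21 lower. That is 15.8% and 36.8%, against 20.0% and 26.3% of all probe sets tested. With the 3′ minus 5′ covariate 13 were lower, and after quantile normalization again 14 were higher. Of the 57, 4 were higher in both lines and 10 lower in both, 2 were higher in MV4-11 and lower in MOLM-13 cells, and 2 were the reverse. Those are 7.02%, 17.5%, 3.51% and 3.51% of the 57, beside 13.4%, 19.0%, 3.88% and 2.66% of all probe sets tested, and the 4 include H2BC21. Of the 11 H2B probe sets, 8 were called lower in this test and 0 higher. H2BC12L (208579_x_at), a gene close in sequence to H2BC12, was one of the 2 that rose in MV4-11 and fell in MOLM-13 cells, at 0.54 ± 0.18 in MV4-11 and -0.66 ± 0.18 in MOLM-13 cells (adjusted p = 0.0132 and 0.00293). The other was 211998_at of H3.3, and the 2 reverse cases were H2AX probe sets. H2AC6 showed the largest difference. In MOLM-13 cells it read 7.93, 7.83 and 7.83 in EPZ004777 and 7.24, 7.24 and 7.17 in vehicle arrays, with no overlap. The change of 0.65 ± 0.37 was not called (adjusted p = 0.131). Its SE rests on the spread in all 8 groups, and the vehicle arrays of MV4-11 on day 6 were far apart for this gene. The difference between the lines was -3.85 ± 0.52 (adjusted p = 7.95e-06). H2BC5 (209911_x_at) read 6.90, 7.18 and 6.83 in EPZ004777 and 7.26, 7.14 and 7.41 in vehicle arrays of MOLM-13 cells, and differed by -2.30 ± 0.20 (adjusted p = 2.84e-08). H2BC12 read 9.95, 10.06 and 10.09 in EPZ004777 and 10.08, 10.13 and 10.10 in vehicle arrays of MOLM-13 cells, a change of -0.07 ± 0.08 (adjusted p = 0.502), and differed by -1.50 ± 0.11 (adjusted p = 5.95e-09).

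Some histone genes moved in MOLM-13 cells without a call in MV4-11 cells. The 2 probe sets of H2AC18 and H2AC19, twin H2A genes of the chromosome 1 cluster, read 9.49, 9.32 and 9.41 in EPZ004777 and 8.72, 9.01 and 8.87 in vehicle arrays at 214290_s_at. At 218280_x_at they read 8.65, 8.42 and 8.30 in EPZ004777 and 7.66, 7.45 and 7.94 in vehicle arrays. They rose by 0.54 ± 0.14 and 0.77 ± 0.15 (adjusted p = 0.00213 and 0.000186), and the differences from MV4-11 cells were 0.49 ± 0.20 and 0.65 ± 0.21 (adjusted p = 0.0461 and 0.0179). On day 4 in MV4-11 cells they gave -0.10 and -0.12, not called, and 0.57 and 0.47 against the vehicle arrays of days 2 and 6, both called.

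**Figure D3:**
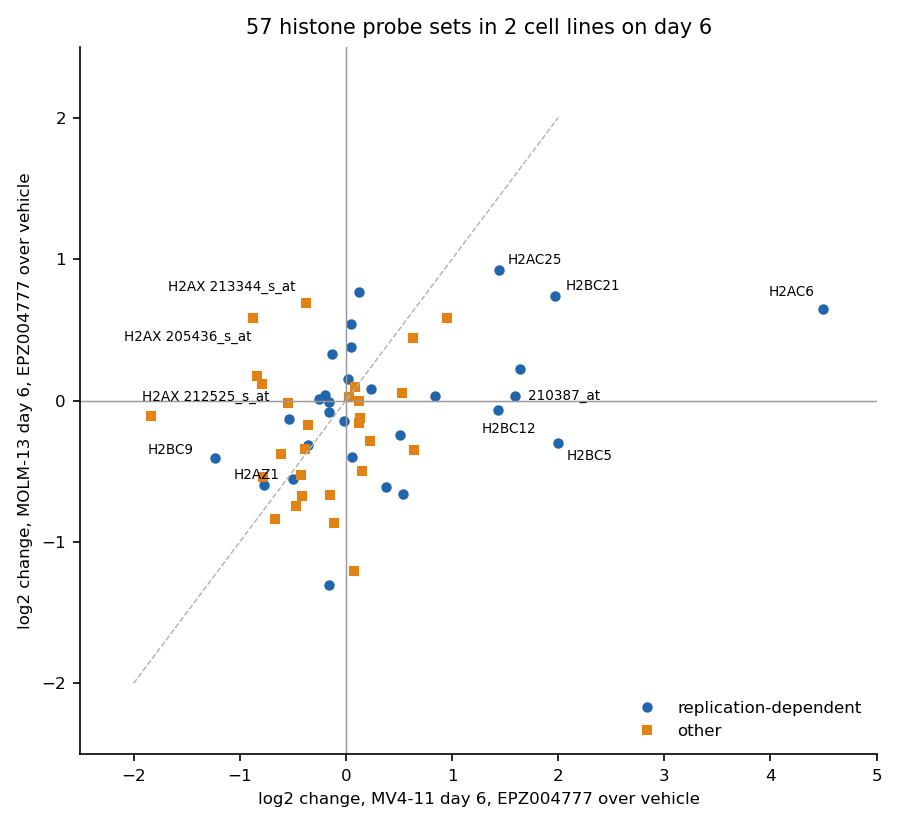
Log2 change on day 6 in MV4-11 cells (horizontal) and MOLM-13 cells (vertical) of the 57 tested histone probe sets, EPZ004777 over vehicle; circles are replication-dependent and squares other histone genes, and the dashed line marks equal change. H2BC5 and H2BC12 lie far to the right near or below the horizontal line. H2AC6 lies furthest to the right and above that line, though not called in MOLM-13 cells, and 2 H2AX probe sets lie in the upper left.

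Over time in MV4-11 cells the change on day 6 differed from that on day 2 for 7 probe sets in the higher and 14 in the lower direction, against 17.1% and 19.3% of all. H2AC6 differed by 3.05 ± 0.52 and H2BC5 (209911_x_at) by 1.54 ± 0.20 (adjusted p = 0.000192 and 1.11e-05). H2BC21 is among the 7, and nothing is read from it, since it was tested only through its treated arrays of days 4 and 6. In the lower direction H2AX differed by -1.88 ± 0.39 at 212525_s_at and -0.77 ± 0.08 at 205436_s_at, and H2AJ by -0.73 ± 0.11 at 224301_x_at (adjusted p = 0.00109, 1.84e-06 and 6.4e-05). Without treated replicate 3 of day 6 the count in the higher direction was 13 in place of 7.

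Genes of proliferation fell while these H2A and H2B probe sets rose. Of 49 tested genes of DNA replication and nucleotide synthesis, 0, 31 and 47 were lower on days 2, 4 and 6 in MV4-11 cells and 34 in MOLM-13 cells, with 0, 0, 0 and 4 higher. Their median log2 changes were -0.05, -0.35, -0.74 and -0.41. Of 50 genes of mitosis and the spindle, 1, 37 and 48 were lower in MV4-11 cells and 26 in MOLM-13 cells, with 0, 0, 1 and 5 higher and medians of -0.10, -0.40, -0.97 and -0.23. Over all probe sets tested, 3.51%, 18.1%, 30.4% and 34.8% were lower and 5.17%, 19.6%, 27.2% and 28.0% higher in these 4 comparisons. CDC6, which loads the replicative helicase, changed by -0.20 ± 0.08, -1.10 ± 0.08, -1.63 ± 0.08 and -1.04 ± 0.08 in the same order (adjusted p = 0.154, 3.08e-09, 6.27e-12 and 3.3e-09). MKI67, a marker of cycling cells, fell in MV4-11 cells, with changes of -0.76 ± 0.07 on day 4 and -1.48 ± 0.07 on day 6 (adjusted p = 1.47e-07 and 7.31e-12) and gave 0.06 ± 0.07 in MOLM-13 cells (adjusted p = 0.502). RPA3, MCM10 and CDC45, which act at the replication fork, changed by -1.34 ± 0.07, -1.78 ± 0.11 and -1.34 ± 0.09 on day 6 in MV4-11 cells (adjusted p = 1.58e-11, 2.22e-10 and 2.4e-10). TYMS, the thymidylate synthase, changed by -0.84 ± 0.10 and MCM2, part of the replicative helicase and a carrier of H3 and H4, by -1.08 ± 0.09 (adjusted p = 6.42e-07 and 1.15e-08). The mitotic genes BUB1B, ESPL1 and KIF2C changed by -1.18 ± 0.06, -1.13 ± 0.06 and -1.18 ± 0.07 (adjusted p = 1.33e-11, 2.33e-11 and 3.09e-11). On day 2, 0 replication genes were called by limma (4 lower at an unadjusted p under 0.05), while H2AC6, H2BC5, H2BC12, H2AC25 and H1-10 were called higher; the number of higher day 2 calls without single arrays ran from 2 to 4. The rising H2A and H2B probe sets were picked by their rise in these same comparisons. Their direction opposite to these genes in MV4-11 cells is thus a description and no test. All 29 replication-dependent probe sets together had a median change of 0.05 on day 6, with 10 higher and 5 lower. H2AZ1, H2AX and H2BC9 moved with the proliferation genes in MV4-11 cells. These comparisons share their vehicle arrays.

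The genes that make and handle histone messages moved in both directions. Among all probe sets tested, 27.2% were higher and 30.4% lower on day 6 in MV4-11 cells, and 28.0% and 34.8% in MOLM-13 cells. Of 11 tested genes of the S phase switch and histone transcription, 6 were lower and 0 higher on day 6 in MV4-11 cells, and 4 were lower and 4 higher in MOLM-13 cells. As shares these are 54.55% and 0%, and 36.4% and 36.4%. CDK2 changed by -1.05 ± 0.08 and CCNE2, its cyclin, by -0.68 ± 0.10 on day 6 in MV4-11 cells (adjusted p = 1.63e-09 and 1.86e-05). E2F8, a repressor of S phase genes, and CASP8AP2, a partner of NPAT, changed by -0.74 ± 0.10 and -0.81 ± 0.08 (adjusted p = 2.48e-06 and 9.15e-08). NPAT, the coactivator of replication-dependent histone genes, gave -0.10 ± 0.07 there (adjusted p = 0.251). Of 25 genes of histone message processing and decay, 4 were higher and 12 lower on day 6 in MV4-11 cells, and 8 were higher and 12 lower in MOLM-13 cells. As shares these are 16% and 48%, and 32% and 48%, with median changes of -0.09 and -0.03. SLBP, the stem-loop binding protein, changed by -0.82 ± 0.10 on day 6 in MV4-11 cells and by -1.55 ± 0.10 in MOLM-13 cells (adjusted p = 1.95e-06 and 3.96e-10), after 0.01 ± 0.10 on day 2 (adjusted p = 0.992). CSTF2, a cleavage factor that acts at poly(A) sites and on histone messages, changed by -1.36 ± 0.10 and -0.94 ± 0.10 (adjusted p = 1.07e-09 and 1.26e-07), and CSTF3, of the same complex, by -0.94 ± 0.08 and -0.66 ± 0.08 (adjusted p = 4.79e-09 and 4.51e-07). NCBP1, a cap-binding protein, changed by -1.07 ± 0.11 in MV4-11 cells (adjusted p = 1.51e-07). MIF4GD, an SLBP partner, rose by 0.96 ± 0.06 and 0.53 ± 0.06 (adjusted p = 1.01e-10 and 2.6e-07).

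Histone chaperones, which carry new histones to DNA, were mostly lower. Of 24 tested, 3 were higher and 17 lower on day 6 in MV4-11 cells and 2 higher and 16 lower in MOLM-13 cells, with medians of -0.40 and -0.32. The lower shares were 70.8% and 66.7%, against 30.4% and 34.8% of all probe sets tested. The higher shares were 12.5% and 8.33%, against 27.2% and 28.0% of all. NASP, a chaperone of H3 and H4, changed by -0.66 ± 0.05 and -0.57 ± 0.05 (adjusted p = 8.73e-09 and 4.86e-08). ASF1B, which hands H3 and H4 to the assembly factors, changed by -0.87 ± 0.11 and -0.73 ± 0.11 (adjusted p = 1.16e-06 and 8.26e-06); with the 3′ minus 5′ covariate the MOLM-13 value was -0.48 and not called (adjusted p = 0.057). DNAJC9, which carries H3 and H4, changed by -0.78 ± 0.08 in MV4-11 cells (adjusted p = 7.36e-08). HJURP, the chaperone of the centromeric H3, changed by -0.85 ± 0.07 in MV4-11 cells (adjusted p = 9.84e-09) and gave 0.12 ± 0.07 in MOLM-13 cells (adjusted p = 0.149). CENPA, that centromeric H3, changed by -1.28 ± 0.16 and -1.61 ± 0.16 (adjusted p = 2.12e-06 and 9.94e-08). Of 14 listed histone variant genes outside the member rule, CENPA and MACROH2A2 were the 2 tested, and MACROH2A2 changed by 0.70 ± 0.22 in MOLM-13 cells (adjusted p = 0.0104). That call was lost with the covariate (0.64, adjusted p = 0.267) and with only the arrays of that comparison in the fit (adjusted p = 0.155), and without vehicle replicate 3 the change was 0.25. Monocyte and macrophage genes moved the other way in the same arrays, with 7, 8 and 9 of 10 tested higher on days 2, 4 and 6 in MV4-11 cells, 9 higher in MOLM-13 cells and 0 lower. Over all probe sets tested, 5.17%, 19.6%, 27.2% and 28.0% were higher in these comparisons. Their summed intensity ran from 36711 to 45912 in EPZ004777 and from 20117 to 20687 in vehicle arrays of MV4-11 on day 6. In MOLM-13 cells it ran from 45831 to 51891 in EPZ004777 and from 17929 to 22648 in vehicle arrays. The part of this shift of the cells' state in the histone values was not tested. S100A8 rose by 3.92 ± 0.12 on day 6 in MV4-11 cells and by 3.55 ± 0.12 in MOLM-13 cells (adjusted p = 4.39e-15 and 8.84e-15). CSF1R, the receptor of a monocyte growth factor, rose by 1.90 ± 0.10 and 1.41 ± 0.10 (adjusted p = 6.98e-12 and 4.94e-10).

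**Figure D4:**
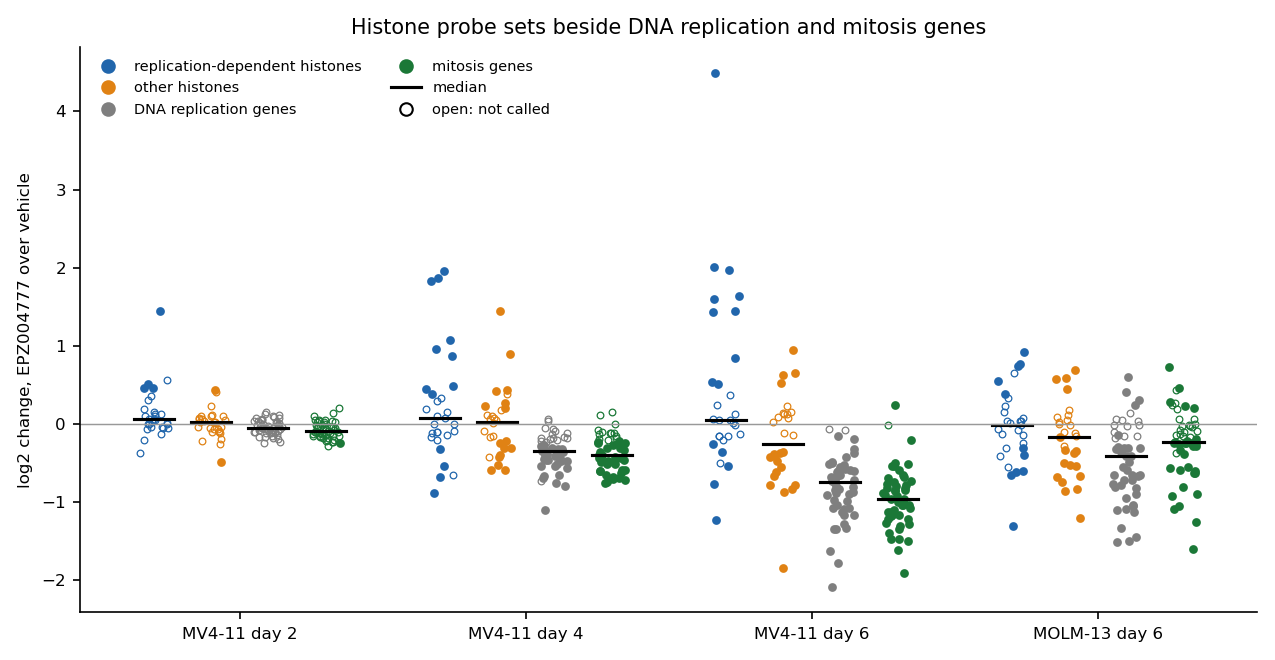
Log2 change, EPZ004777 over vehicle, of replication-dependent histones (29 probe sets), other histones (28), DNA replication genes (49) and mitosis genes (50) in each comparison; filled points are called at an adjusted p under 0.05, open ones are not, and bars are medians. On day 6 in MV4-11 cells the replication and mitosis genes lie almost all under 0, with medians of -0.74 and -0.97, while replication-dependent histones spread from -1.23 to 4.50.

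Vehicle cultures showed how far histone levels moved without the inhibitor. From day 2 to day 6 in MV4-11 cells, 0 of 57 probe sets were called higher and 1 lower (limma; 2 and 3 at an unadjusted p under 0.05), against 0.418% and 0.367% of all. The one called was H2AX 205436_s_at, with -0.27 ± 0.06 (adjusted p = 0.0384). The vehicle arrays of day 4 stood apart from those of days 2 and 6, with 12 probe sets higher and 1 lower, against 11.7% and 10.6% of all. H2AC6 was 2.41 ± 0.32 higher in the day 4 vehicle arrays, 210387_at 1.65 ± 0.30 and H2AC8 (214469_at) 0.75 ± 0.19 (adjusted p = 3.73e-05, 0.00071 and 0.00839), and H2AZ2 at 227085_at was lower, at -0.17 ± 0.06 (adjusted p = 0.0392). Of the 12 higher, 10 were replication-dependent and the other two were MACROH2A1 probe sets. In the same vehicle arrays of day 4 the DNA replication list had 0 of 49 genes higher and 27 lower, and the mitosis list 0 of 50 higher and 33 lower (limma; 1 and 37, and 0 and 39, at an unadjusted p under 0.05). The H2A and H2B probe sets named here thus stood higher, and the proliferation genes lower, in vehicle arrays that had no inhibitor. Day 4 changes of these genes rest on those vehicle arrays.

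Between the lines, vehicle MOLM-13 arrays had 9 probe sets higher and 21 lower than vehicle MV4-11 arrays of day 6, against 31.1% and 30.0% of all. H2AC6 was higher in MOLM-13 cells by 2.52 ± 0.37, 210387_at by 2.25 ± 0.35 and 214472_at by 2.01 ± 0.21 (adjusted p = 7.38e-06, 1.42e-05 and 7.45e-08). H2AC25 was lower, at -2.44 ± 0.09, as were the 2 H2AC18 and H2AC19 probe sets, at -1.81 ± 0.14 and -1.77 ± 0.15 (adjusted p = 1.21e-14, 1.07e-09 and 4.73e-09). H2BC12 was 0.35 ± 0.08 higher (adjusted p = 0.00104) and H2AZ1 at 200853_at gave -0.09 ± 0.07 (adjusted p = 0.287). The lines were grown in different media, so line and medium cannot be told apart.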

How the data were processed

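RNA from 24 cultures of 2 cell lines was measured on Affymetrix Human Genome U133 Plus 2.0 arrays. The authors deposited 1 normalized intensity per probe set and array, made with GCRMA per the submitters' processing notes (version not given in the sources used). The scale is not named in the labels and was taken as linear from the range of the values. These deposited intensities were taken as log2 with a pseudocount of 0. Array number, not read depth, limits the precision. Groups came from the titles, and no 2 arrays were identical. After 62 control probe sets were left out, 25334 probe sets with a log2 of at least 4 in at least 3 arrays were fitted with limma 3.58.1 in R 4.3.3: 1 mean per group over all 24 arrays, 9 contrasts, eBayes, and Benjamini-Hochberg adjustment over all probe sets tested. A call is an adjusted p under 0.05. Single-array comparisons of 3 against 3 by exact permutation cannot go below 0.1 and were not used. Gene symbols came from the platform annotation, and all 78 symbols of the member probe sets matched RefSeq, 76 of them histone symbols under the rule. For the gene lists, each gene was read from its brightest probe set with that symbol alone.

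The members and lists were chosen with earlier results of these data known. Probe sets named are the 6 largest rises and falls called in each treatment comparison, the 3 largest differences in each direction, a panel of histone genes whatever their values, every probe set listed with H2AC18 or H3C2, and of each list up to 4 genes by adjusted p on day 6 in MV4-11 cells with SLBP, NPAT, CCNE2, MKI67, MCM2, ASF1B and TYMS. H2AC8, H2AC14, H2BC6, H2BC12L, H3C8, H4C11 and single probe sets beyond this rule were named after their values were seen. On simulated data with 100 probe sets changed by 1 on the log2 scale, 89, 83, 90 and 84 were recovered on days 2, 4 and 6 in MV4-11 cells and in MOLM-13 cells, and of 100 changed by 0.5, 50, 47, 55 and 48. Same-numbered treated and vehicle replicates did not deviate together (correlations from -0.23 to 0.09), so no block was used. Alternatives were filters, normalizations, the fit, the members counted, a 3′ minus 5′ covariate, other vehicle arrays and leaving out each array. Tables and figures used Python 3.11.15, numpy 2.4.6, pandas 2.3.3 and matplotlib 3.10.9.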

Additional observations from a re-analysis of the deposited data

Results flagged for a closer look

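For some histone probe sets the log2 change under EPZ004777 differed between days and between lines by a test of the difference itself. From day 2 to day 6 in MV4-11 cells it differed in the higher direction for 7 of 57 histone probe sets and in the lower for 14. That is 12.3% and 24.6%, against 17.1% and 19.3% of all probe sets tested. The differences were 3.05 for H2AC6, 1.82 for H2BC21 and 1.54 for H2BC5 (209911_x_at). In the lower direction they were -1.88 and -0.77 for H2AX at 212525_s_at and 205436_s_at, and -0.73 for H2AJ at 224301_x_at. The value of H2BC21 is a description only, since it was tested only through its treated arrays of days 4 and 6 and lay under the filter in all others, and the value of H2AX at 212525_s_at leans on treated replicate 3 of day 6, the array with the highest 3′ minus 5′ difference of its group; the part of RNA quality was not tested there beyond the covariate.

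Between MOLM-13 and MV4-11 cells on day 6, MOLM-13 minus MV4-11, the change differed in the higher direction for 9 of 57 histone probe sets and in the lower for 21. That is 15.8% and 36.8%, against 20.0% and 26.3% of all probe sets tested. The lower values were -3.85 for H2AC6, -2.30 for H2BC5 and -1.56 for the H2BC8 and H2BC11 probe set 210387_at. The higher values were 1.73, 1.45 and 1.07 for H2AX at 212525_s_at, 205436_s_at and 213344_s_at. H2AC6 and 210387_at stood higher in vehicle MOLM-13 than in vehicle MV4-11 arrays, by 2.52 and 2.25.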

How the results depend on the processing

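Of 4189 values of named probe sets and genes under the alternatives, 4013 kept their direction and side of the threshold, 115 lost a call, 51 gained one and 10 reversed. Of 160 called changes, 38 lost their call in at least 1 alternative. Of 57 members, those whose ID ends in _x_at or _s_at carry many calls, and array number limits all of them.

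Reversed values were 0.34 and 0.24 for H2AZ2 (202487_s_at and 212206_s_at), 1.16 for H2AX (212525_s_at), 0.18 for MACROH2A1 (214500_at), 0.13 for DNAJC9 and -0.036 for NPAT in MOLM-13 cells with the 3′ minus 5′ covariate, 0.15 for BUB1B there after quantile normalization again, 0.19 for MACROH2A1 (214500_at) on day 6 without treated replicate 3 (its values without single arrays ran from -0.33 to 0.19), and 0.57 and 0.47 for H2AC18 and H2AC19 (214290_s_at and 218280_x_at) on day 4 against vehicle arrays of days 2 and 6. The cause was not tested.

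Counts below are of histone probe sets, higher or lower, in the order days 2, 4 and 6 in MV4-11, MOLM-13, day 6 minus day 2, MOLM-13 minus MV4-11, vehicle day 6 minus day 2, vehicle day 4, and vehicle MOLM-13. A 2-fold minimum, which can only lower a count, left 1, 5, 7, 0, 4, 4, 0, 2 and 4 higher and 0, 0, 2, 2, 1, 9, 0, 0 and 6 lower. Counting fewer members did too. Without _x_at and _s_at IDs, higher counts were 2, 7, 7, 2, 4 and 1 in the first 6, and lower counts were 4, 3, 7, 2 and 10 from day 4 to MOLM-13 minus MV4-11, 0 for vehicle day 6 and 6 for vehicle MOLM-13. With 1 probe set per symbol combination, 8 were higher on day 4 and 4 in MOLM-13 minus MV4-11, and 0, 8, 10, 8, 8 and 12 lower in the first 6, 0 for vehicle day 4 and 9 for vehicle MOLM-13. With 1 symbol only, 10 were lower in MOLM-13, 10 in MOLM-13 minus MV4-11, and 5 higher in vehicle MOLM-13; members over the filter in all arrays gave 4 there. With the 3′ minus 5′ covariate, 2 were lower on day 2, 7 in MOLM-13, 9 in day 6 minus day 2 (12 higher), 13 in MOLM-13 minus MV4-11 and 4 in vehicle day 4. With only the arrays compared, 9 were higher on day 6, and 2 lower on day 2, 0 in vehicle day 6 and 3 in vehicle day 4. No filter gave 2 higher on day 2. Quantile normalization again gave 14 higher in MOLM-13 minus MV4-11. Lower in vehicle day 4 were 2 with no filter, 2 with the log2 6 filter, 4 with a trend and robust prior, 5 with a common median, 3 without moderation and 2 with the replicate block, which changed no other count by over 1.5 times; the replicate numbers pair no samples.

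Without single arrays, higher counts ran from 2 to 4 on day 2, 7 to 13 for day 6 minus day 2 and 0 to 1 in vehicle day 6. Lower counts ran from 0 to 1 on day 2, 8 to 12 on day 4, 0 to 1 in vehicle day 6 and 0 to 1 in vehicle day 4. Medians ran from 0 to 0.0551 on day 4, -0.0789 to 0.0430 on day 6 and -0.119 to -0.0535 in MOLM-13. The day 4 median was 0 with no filter, 0.0192 with a common median, 0.0236 with 1 symbol only, 0.0716 without _x_at and _s_at IDs, 0 with 1 probe set per combination, 0.00104 with the covariate and 0.0252 against vehicle of days 2 and 6. The day 6 median was -0.137 with 1 symbol only. In MOLM-13 it was 0 with no filter, -0.0351 after quantile normalization again, -0.0491 with a common median, -0.0142 with 1 symbol only, 0.00405 without _x_at and _s_at IDs, -0.0657 with 1 probe set per combination and 0.0834 with the covariate.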
